A study of Mus musculus with 19 samples.

Results

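The glia described here are mouse cells derived from embryonic stem cells, and their transcriptome was measured by RNA-seq in 3 libraries, glia 1, glia 2 and glia 3. They are 3 of the 19 samples of the study, chosen by their label as glial cells. The study set them against 4 RNA libraries of embryonic stem cell-derived glial progenitor cells (GPC), and it also mapped the transcription factors SOX3, SOX9 and NFIA and an acetylated histone by ChIP-seq. Per the labels' protocols, differentiation was started with all-trans retinoic acid, A2B5-positive progenitors were collected with magnetic beads, and these were expanded in N2B27 medium with EGF and FGF2. Both groups carry 1 protocol text in the labels, which does not tell by what steps, or over what time, progenitors became glia. No genetic change is named for either group. The libraries are numbered, but nothing ties a number to its own culture. The spread over libraries, and every p-value that rests on it, measures only these samples and may be technical.

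Astrocytes and oligodendrocytes are the glial cells that neural progenitors give rise to in the brain and spinal cord. Astrocytes carry a cytoskeleton rich in the intermediate filament GFAP, clear glutamate, potassium and water around synapses, and secrete lipid particles that contain apolipoprotein E. Oligodendrocytes wrap axons in myelin, whose main proteins include MBP, and they mature from precursors that express Pdgfra, Olig2 and Sox10.

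Levels are given as RPKM, the reads of a gene scaled to the length of the gene and the size of the library, as the authors deposited them, so that genes of different length can be set side by side. The libraries held 17166532, 6897294 and 17369367 reads counted in genes in glia 1, 2 and 3, and glia 2 was thus the shallowest. At this depth, 1 read in a gene of 2 kb was worth 0.0291, 0.0724 and 0.0287 RPKM. The authors' RPKM of genes with near-identical copies is uncertain. The gene length implied by a row's counts and RPKM came to 219 bases for Gapdh and 165 bases for Ppia, which were listed at mean levels of 4.13 and 3.92 RPKM. Of the genes with a mean of at least 1 RPKM, 241 had an implied length under 200 bases. Among the 30 highest, Rplp1 and Ubb were under this length. This cut need not find every gene with such copies. It also takes in short noncoding rows such as Mir3064, at 66.2 bases, so 241 is not a count of genes with copies. Implied lengths were 464 bases for Tuba1a and 768 bases for Eef1a1, against a median of 2673 bases over the genes with a mean of at least 1 RPKM. Whether the levels of these 2 genes are affected was not tested.

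The highest gene by mean RPKM was Cst3, which encodes the secreted protease inhibitor cystatin C, at 3833, 3195 and 4370.2 RPKM in glia 1, 2 and 3. Apoe, the lipid carrier of astrocytes, followed at 3394, 2593 and 4106 RPKM, and Dbi, which encodes an acyl-CoA-binding protein, at 3349, 3168 and 3438 RPKM. Gfap, the astrocyte intermediate filament, ranked at position 4 with 3353, 2931 and 3489.5 RPKM, from 157495, 55341 and 165855 reads. All 4 of these genes were lowest in glia 2, as were 39.1% of all genes with a mean of at least 1 RPKM. Tuba1a, an alpha tubulin, stood at 3268, 2922 and 3198 RPKM and completed the first 5. The sixth gene, Eef1a1, a translation elongation factor, averaged 2239.8 ± 34.4 RPKM (SD, n = 3).

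Brain-type creatine kinase, Ckb, averaged 2166 ± 333 RPKM and the metallothionein Mt1 2128 ± 282 RPKM (SD, n = 3 each). The iron store proteins followed, with Fth1 at 1840.2 ± 191 RPKM and Ftl1 at 1029 ± 152 RPKM. Scd2, a stearoyl-CoA desaturase that makes monounsaturated fatty acids, averaged 1778 ± 70.2 RPKM. Because its transcript is long, Scd2 took more reads than any other gene in the table, 385440 over the 3 libraries. Fabp7, a fatty acid-binding protein of radial glia and progenitors, averaged 1659 ± 34.2 RPKM, and Vim, the intermediate filament of immature glia, 1324 ± 88.4 RPKM. Itm2b, Nnat, Ndrg2, Sparc, Psap, Cd81, Sparcl1 and Gnas filled the positions from 15 to 22, between 1250.4 and 1044 RPKM. Mbp, the myelin basic protein gene, ranked at position 24 with 1026, 782 and 1177 RPKM. Rps15, Pea15a, Aldoc, Serpine2 and Cfl1 were the remaining genes among the 30 highest besides Rplp1, Tmsb4x and Ubb, with means from 853.5 to 957 RPKM.

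**Figure D1:**
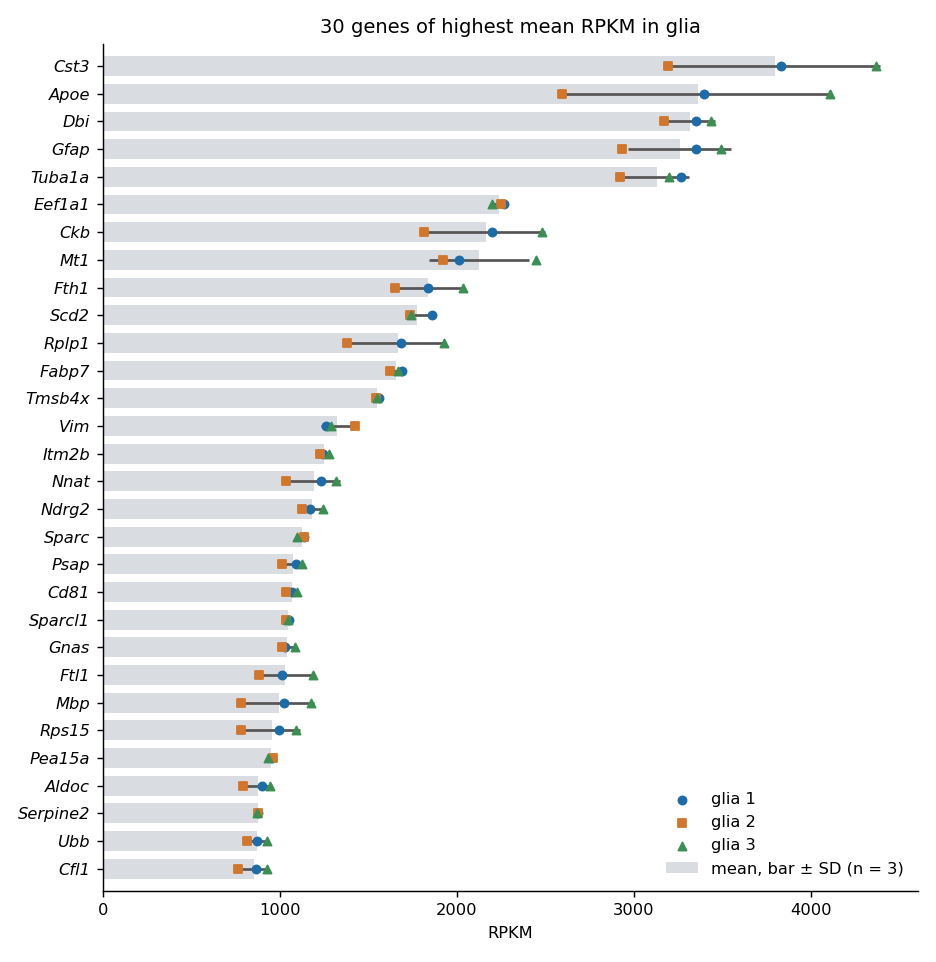
RPKM of the 30 genes of highest mean level in glia (horizontal axis, linear from 0), with a bar for the mean, a line for ± 1 SD over 3 libraries and a marker for each library. Cst3 lies at 3195 to 4370.2 RPKM, Apoe at 2593 to 4106 RPKM, Gfap at 2931 to 3489.5 RPKM and Mbp at 782 to 1177 RPKM.

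The order of neighbours in this list was often not resolved. Of the 30 pairs of neighbours from position 1 to 31, 9 kept their order in all 3 libraries, 18 in 2 libraries and 3 in 1 library. Cst3 was above Apoe, and Gfap above Tuba1a, in all 3 libraries, whereas Dbi was above Gfap in 1 library only. All 30 genes were among the 40 highest of every glia library. By reads rather than by reads per length, the 10 highest genes were Scd2, Gfap, Apoe, Sparcl1, Cst3, Psap, Sparc, Ndrg2, Ckb and Vim, and 5 of them were also among the 10 highest by RPKM. Of the 100 genes highest in glia, 63 were also among the 100 highest in GPC. Gfap, Apoe and Mbp were not, since they ranked at positions 8124, 2132 and 7933 in GPC.

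The RefSeq start-site windows of 3 of the 10 highest genes are shown because they carry different promoter letters (build GRCm38.p6, 250 bases before the start to 50 after it, read on the gene's strand). Capitals mark 3 common promoter motifs, searched on both strands, whose matches did not overlap. The first is TATAAA and stands for the core of the TATA box. The second is the CCAAT box, which is named after its letters. The last, known as the GC box, has the letters GGGCGG when read on its own strand. The windows lie at chr2:148875463-148875762 (minus strand) for Cst3, chr11:102897151-102897450 (minus strand) for Gfap and chr12:111672289-111672588 (minus strand) for Ckb.
Cst3: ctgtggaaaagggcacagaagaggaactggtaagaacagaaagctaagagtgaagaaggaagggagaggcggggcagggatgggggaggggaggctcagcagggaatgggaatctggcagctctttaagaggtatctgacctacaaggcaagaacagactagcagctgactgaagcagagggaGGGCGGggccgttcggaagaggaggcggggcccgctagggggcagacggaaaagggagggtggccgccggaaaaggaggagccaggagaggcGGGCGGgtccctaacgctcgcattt
Gfap: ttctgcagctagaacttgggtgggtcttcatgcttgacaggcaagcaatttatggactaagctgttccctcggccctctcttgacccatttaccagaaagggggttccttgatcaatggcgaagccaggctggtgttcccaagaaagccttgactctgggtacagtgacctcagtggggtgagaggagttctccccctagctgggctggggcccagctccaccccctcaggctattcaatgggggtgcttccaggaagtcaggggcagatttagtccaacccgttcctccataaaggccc
Ckb: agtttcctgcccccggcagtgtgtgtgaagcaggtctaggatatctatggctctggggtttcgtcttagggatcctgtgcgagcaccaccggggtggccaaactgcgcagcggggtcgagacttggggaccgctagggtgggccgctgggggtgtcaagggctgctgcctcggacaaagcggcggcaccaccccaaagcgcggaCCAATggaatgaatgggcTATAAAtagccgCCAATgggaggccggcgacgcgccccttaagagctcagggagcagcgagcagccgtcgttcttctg
The Cst3 window held the GC box motif at 2 places and neither of the other motifs. The Ckb window held the TATA box motif starting 28 bases before the start site, between 2 matches to the CCAAT box. The Gfap window held no match to these letters, which says only that they are not in this window. Of all 32851 RefSeq windows of this length, 13.6% held the TATA box motif, 37.4% the CCAAT box and 35.7% the GC box motif.

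Transcripts were spread over many genes. At 1 RPKM or more, 12593, 12591 and 12567 genes were detected in glia 1, 2 and 3, of which 12320 were shared by all 3, out of 22958 rows. No read was counted for 5761 rows in any glia library. The mean reached 10 RPKM in 7704 genes, 100 RPKM in 743 genes and 1000 RPKM in 23 genes, and the median gene detected in all 3 libraries stood at 14.8 RPKM. The 10 highest genes held 6.32%, 5.78% and 6.68% of the summed RPKM in glia 1, 2 and 3, and the 100 highest held 20.5%, 19.5% and 21.1%. It took 980, 1056 and 939 genes to hold 50% of the summed RPKM in glia 1, 2 and 3, against 880 to 909 genes in the 4 GPC libraries. The ranges did not overlap.

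Of the 14 cell type lists, the astrocyte list had the highest summed level, followed by the neural progenitor, maturing oligodendrocyte, oligodendrocyte precursor, mesenchyme and neuron lists. Below the astrocyte list this order depended on the summary. By the median member, the astrocyte list led at 107 RPKM, then the precursor list at 39.5 RPKM and the progenitor list at 26.7 RPKM. The mesenchyme and maturing oligodendrocyte lists came next, at 26.6 and 19.0 RPKM. Without its highest member, the precursor list summed to 1665 RPKM and the maturing oligodendrocyte list to 1585 RPKM. In these bulk samples, fewer cells of a type and less RNA of that type per cell cannot be told apart, so the sums are levels and not shares of cells. The 35 astrocyte genes summed to 18677.5, 16571.5 and 20303.5 RPKM in glia 1, 2 and 3, which was 4.28% of the summed RPKM of all genes on average. In GPC the same genes summed to 3355 to 4854 RPKM. The 30 maturing oligodendrocyte genes summed to 2700.2, 2086 and 2954 RPKM in glia and to 185 to 220.3 RPKM in GPC. The astrocyte sum was 6.92, 7.95 and 6.87 times the maturing oligodendrocyte sum in glia 1, 2 and 3 (mean 7.25 ± 0.607 SD, n = 3). This ratio depends on which genes are listed. It was 5.84 from the medians of the 2 lists, 9.37 without the highest member of each list, and 3.54 without Cst3, Apoe, Clu, Sparcl1 and Mt3, 5 astrocyte genes that other cells also use and that were set aside after their values were seen.

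**Figure D2:**
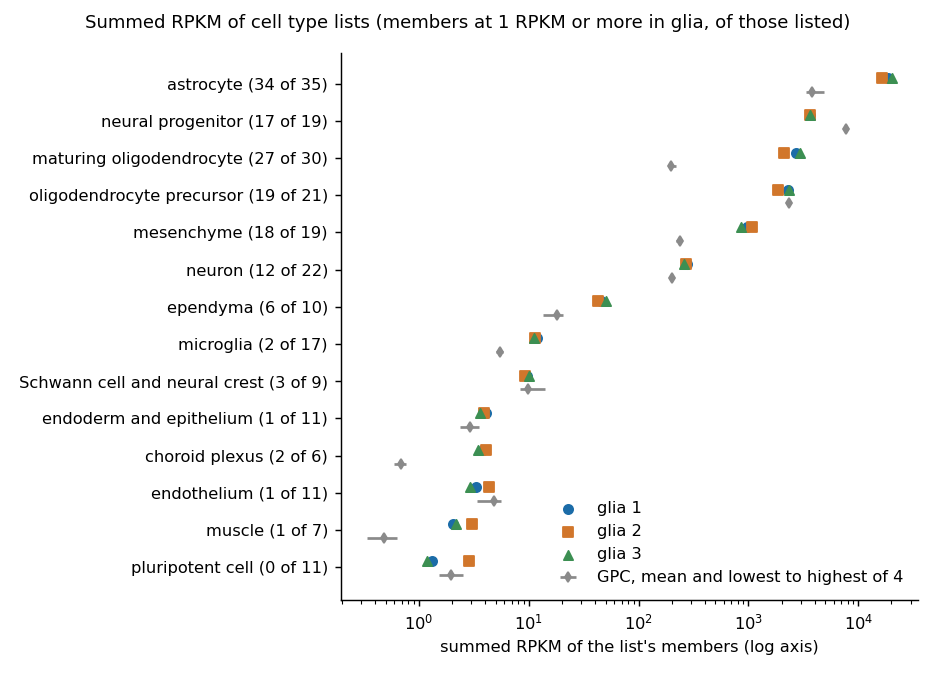
Summed RPKM of 14 cell type lists (horizontal log axis) in glia 1, 2 and 3 (coloured markers, upper row of each list) and in GPC (grey, mean with a line from the lowest to the highest of 4 libraries). In glia the astrocyte list stands at 16571.5 to 20303.5 RPKM, the neural progenitor list at 3595 to 3647 RPKM and the maturing oligodendrocyte list at 2086 to 2954 RPKM, while the pluripotent list stays under 3 RPKM.

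Within the astrocyte list, 34 of 35 genes had a mean of at least 1 RPKM, 30 at least 10 RPKM and 20 at least 100 RPKM, and the median member stood at 107 RPKM. The defining markers were spread over more than 2 orders of magnitude. Gfap is described above. Slc1a3, the glutamate transporter GLAST, stood at 185, 193 and 168 RPKM in glia 1, 2 and 3, and Aqp4, the water channel of astrocyte endfeet, at 107, 113 and 100.4 RPKM. Aldh1l1, a folate enzyme often used as a general astrocyte marker, stood at 11.3, 12.9 and 11.9 RPKM, below the median of all detected genes. Gja1, which encodes the gap junction protein connexin 43, averaged 666 ± 11.2 RPKM and Clu, which encodes the lipid-carrying chaperone clusterin, 462 ± 18.9 RPKM (SD, n = 3 each). Slc1a2, the glutamate transporter GLT-1 of mature astrocytes, averaged 43.2 ± 2.71 RPKM. Gjb6, which encodes another gap junction protein of astrocytes, was the only gene of the list under 1 RPKM, at 0.639 ± 0.134 RPKM. Of the 34 genes, 22 were lowest in glia 2 and 18 highest in glia 3. Of all genes with a mean of at least 1 RPKM, 39.1% were lowest in glia 2 and 36.7% highest in glia 3.

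Genes for glutamate and potassium handling were at intermediate levels, with a median of 61.7 RPKM over the 21 listed and 19 at 1 RPKM or more. Gja1 was followed by Atp1b2, a subunit of the glial sodium pump, at 475 ± 29.7 RPKM and by Glud1, glutamate dehydrogenase, at 265 ± 3.07 RPKM (SD, n = 3 each). Glul, glutamine synthetase, averaged 126 ± 4.14 RPKM in glia and 373 ± 41.6 RPKM in GPC (SD, n = 3 and 4). Of the 36 genes listed for reactive astrocytes, 30 reached 1 RPKM, with a median of 8.24 RPKM. After Gfap and Vim the highest were S100a10 at 132 ± 9.51 RPKM and Cd109, a cell surface protein, at 66.7 ± 8.94 RPKM. Serpina3n, a secreted protease inhibitor, stood at 37.3, 39.7 and 37.1 RPKM.

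Myelin genes were present at uneven levels. Of 30 maturing oligodendrocyte genes, 27 reached 1 RPKM, 19 reached 10 RPKM and 4 reached 100 RPKM, with a median of 19.0 RPKM. Mbp alone held 38.6% of the list's sum. Cnp, a myelin phosphodiesterase, stood at 360.0, 254 and 396 RPKM in glia 1, 2 and 3. The defining markers of later myelin were lower. Mag, an adhesion protein of the innermost myelin layer, stood at 70.6, 51.4 and 81.8 RPKM, and Mog, found on the outer myelin surface, at 9.89, 10.9 and 9.78 RPKM. Myrf, the transcription factor that drives myelin genes, averaged 24.8 ± 5.23 RPKM (SD, n = 3). Of the 27 genes, 20 were lowest in glia 2 and 18 were highest in glia 3, against 39.1% and 36.7% of all genes.

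The precursor markers covered a similar range. Olig1 and Olig2, transcription factors of the oligodendrocyte lineage, stood at 530.1, 393 and 564 RPKM and at 291, 238 and 294 RPKM in glia 1, 2 and 3. Bcan, a proteoglycan, averaged 394 ± 52.4 RPKM and C1ql1, a secreted protein of precursors, 329.7 ± 69.1 RPKM (SD, n = 3 each). Pdgfra, the receptor by which precursors respond to PDGF, averaged 53.6 ± 4.61 RPKM, and Sox10 12.5 ± 2.60 RPKM. Cspg4, which encodes the NG2 proteoglycan, was low at 2.23, 2.06 and 2.30 RPKM. Of 19 precursor genes at 1 RPKM or more, 12 were lowest in glia 2, against 39.1% of all genes at that level.

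Neural progenitor genes summed to 3595, 3647 and 3626 RPKM in glia 1, 2 and 3, and Fabp7 alone held 45.8% of that sum. Vim, which is also on the reactive astrocyte list, was the next highest member at 1324 ± 88.4 RPKM (SD, n = 3). Only 3 of the 19 members reached 100 RPKM, namely Fabp7, Vim and Sox2. In GPC the list summed to 7548 to 8031 RPKM. Sox2, a transcription factor of progenitors and of glia, averaged 181 ± 15.6 RPKM, Pax6 26.7 ± 0.718 RPKM and the intermediate filament Nes 21.8 ± 2.30 RPKM (SD, n = 3 each). All 30 cell cycle genes reached 1 RPKM, and 23 reached 10 RPKM. They summed to 601, 601 and 581 RPKM in glia, against 2387 to 2839 RPKM in GPC. Pcna, the sliding clamp of DNA replication, was the highest at 54.5, 46.1 and 58.9 RPKM, followed by Ube2c at 44.3 ± 2.04 RPKM and Ccnd2 at 37.8 ± 3.85 RPKM.

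**Figure D3:**
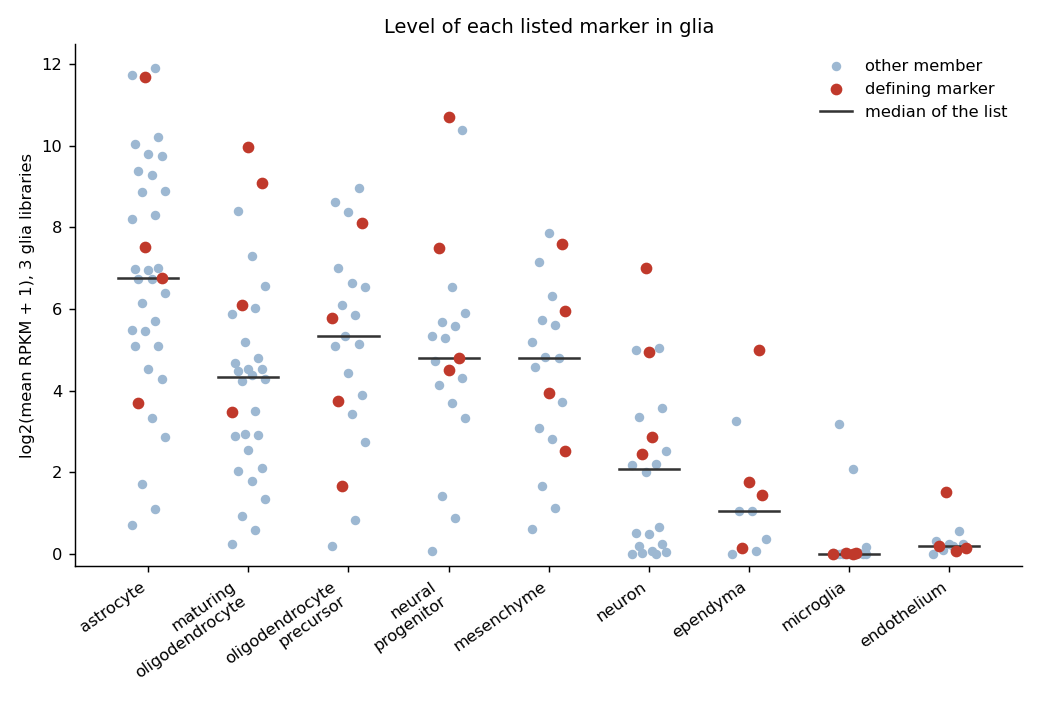
Level of every listed marker of 9 cell types, as log2 of the mean RPKM over 3 glia libraries plus 1 (vertical axis), with defining markers in red, other members in blue and a line at the list's median. Astrocyte, oligodendrocyte, progenitor and mesenchyme markers span the range, whereas the microglia and endothelium markers lie near 0 apart from Tmem119, Cd68 and Kdr.

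Of the mesenchyme genes, 18 of 19 reached 1 RPKM, with a median of 26.6 RPKM and a sum of 971, 1065 and 862 RPKM. The highest were the fibrillar collagens Col3a1 at 236, 250 and 214 RPKM and Col1a1 at 186, 207 and 178 RPKM, and the proteoglycan Dcn at 142, 154 and 124 RPKM. Acta2, smooth muscle actin, averaged 61.1 ± 10.6 RPKM, Col1a2 14.4 ± 2.35 RPKM and Pdgfrb 4.72 ± 0.665 RPKM (SD, n = 3 each). Col1a2 was thus far below Col1a1, although both encode chains of type I collagen. Of the 18 genes, 15 were highest in glia 2 and 15 lowest in glia 3, the reverse of the oligodendrocyte genes. Of all genes with a mean of at least 1 RPKM, 43.5% were highest in glia 2 and 39.0% lowest in glia 3. Neuron genes summed to 274, 272 and 259 RPKM in glia and to 190 to 207 RPKM in GPC. Map2, a dendrite microtubule protein also found in glial precursors, held 47.5% of the glia sum. Elavl3 and Dcx, the next highest of the list, averaged 32.0 ± 6.91 and 30.9 ± 3.68 RPKM in glia. In GPC these 2 genes averaged 2.81 ± 0.164 and 4.65 ± 0.274 RPKM. Map2 averaged 127 ± 13.4 RPKM in glia and 150 ± 8.64 RPKM in GPC (SD, n = 3 and 4). Tubb3 averaged 30.05 ± 3.60 RPKM, Snap25 6.34 ± 0.450 RPKM and Rbfox3, the neuronal splicing factor NeuN, 4.51 ± 0.240 RPKM, and 12 of 22 neuron genes reached 1 RPKM.

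Other cell types left little signal. Of 17 microglia genes, 2 reached 1 RPKM, Tmem119 at 8.07 ± 0.642 RPKM and Cd68 at 3.26 ± 0.136 RPKM, and 9 had no read in any glia library. Among the defining microglia markers, Aif1 and Cx3cr1 were at 0 in all 3 libraries, and Itgam and Csf1r averaged 0.0207 and 0.0174 RPKM. Endothelial genes summed to 2.91 to 4.32 RPKM, 53.7% of it from Kdr, with Pecam1, Cdh5 and Tek each at or under 0.145 RPKM. Foxj1, a transcription factor of ciliated cells, stood at 29.6, 28.5 and 34.4 RPKM and held 66.7% of the ependyma sum, while the other defining ependyma markers Tekt1, Rsph1 and Ccdc153 averaged 1.72, 2.41 and 0.116 RPKM. The pluripotency genes Pou5f1 and Zfp42 had an RPKM of 0 in all 3 libraries and Nanog averaged 0.575 RPKM. Choroid plexus, endoderm, muscle and Schwann cell lists summed to under 11 RPKM each, and their defining markers averaged at most 0.521 RPKM except Prx at 3.10 RPKM and Folr1 at 2.21 RPKM.

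The highest of 144 listed transcription factors was Olig1, followed by Id3, Olig2, Thra, Id4 and Id2. The Id proteins are inhibitors of basic helix-loop-helix factors. Id3 stood at 303, 230.1 and 337 RPKM, Id4 at 221, 200.5 and 239 RPKM and Id2 at 191, 173 and 185 RPKM in glia 1, 2 and 3. The thyroid hormone receptor Thra averaged 226 ± 19.7 RPKM (SD, n = 3). Sox4 and Sox8 followed Sox2 at 171 ± 24.2 and 119 ± 14.7 RPKM, and Hopx, Tcf12 and Atf4 lay between 92.9 and 111 RPKM. Sox9, a target of the study's ChIP-seq, averaged 75.8 ± 0.585 RPKM. Of 39 Hox genes, which mark position along the body axis, 23 reached 1 RPKM. The highest were Hoxb8 at 48.9 ± 4.58 RPKM, Hoxa5 at 39.1 ± 1.53 RPKM, Hoxb6 at 33.2 ± 1.15 RPKM and Hoxb7 at 23.1 ± 1.53 RPKM.

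Among 48 listed receptors, 47 reached 1 RPKM. The endothelin receptor Ednrb was the highest at 362, 387 and 328 RPKM, then Ntrk2, the receptor of the neurotrophin BDNF, at 319, 315 and 302 RPKM and the collagen receptor Ddr1 at 239, 223 and 262 RPKM. Their order was the same in every library. Il6st and Cntfr, shared and specific parts of the CNTF receptor, averaged 105 ± 6.71 and 84.7 ± 9.87 RPKM, and S1pr1, Ptprz1, Cxcr4, Smo and Bmpr1a lay between 63.3 and 94.2 RPKM (SD, n = 3 each).

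**Figure D4:**
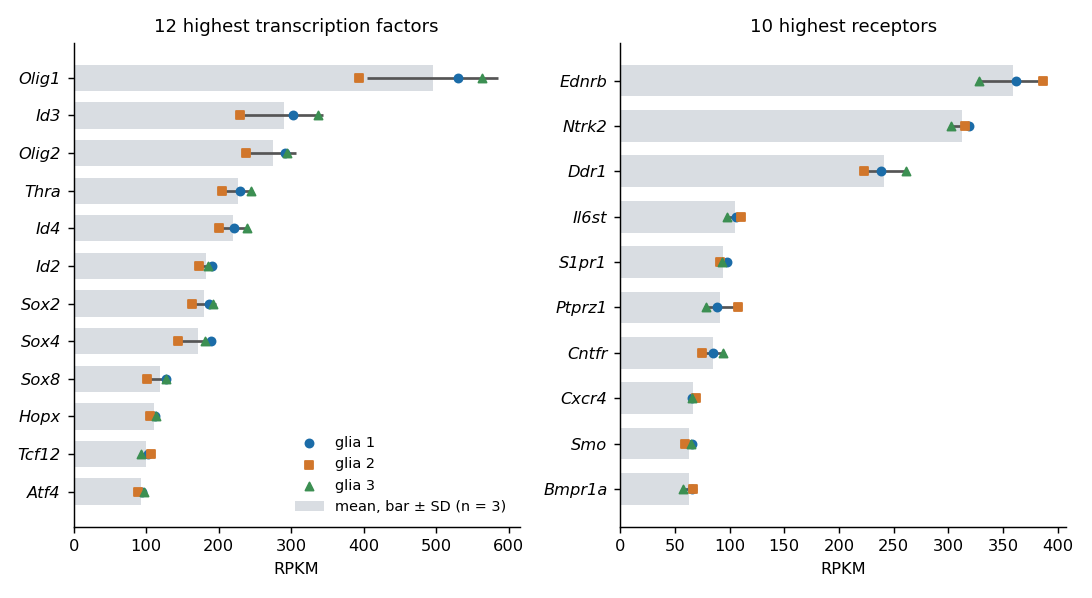
RPKM of the 12 highest listed transcription factors (left) and the 10 highest listed receptors (right) in glia (horizontal axes, linear from 0), with a bar for the mean, a line for ± 1 SD over 3 libraries and a marker for each library. Olig1 ranges from 393 to 564 RPKM and Ednrb from 328 to 387 RPKM, with glia 2 lowest for Olig1 and highest for Ednrb.

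The metallothioneins, small proteins that bind zinc and copper, summed to 3667, 3477 and 4335 RPKM from 4 genes. Mt1 stood at 2012, 1923 and 2450.0 RPKM, Mt2 at 829.4, 755 and 956 RPKM and Mt3, the brain form, at 826, 799 and 929 RPKM, while Mt4, an epithelial form, was listed at 0, 0.185 and 0 RPKM. All 3 abundant genes were lowest in glia 2 and highest in glia 3, against 39.1% and 36.7% of all genes with a mean of at least 1 RPKM. The 3 metallothionein genes lie near each other on chromosome 8, and their RefSeq start-site windows are shown because they were high together. Capitals mark TGCACNC or TGCGCNC on either strand, the core letters of the metal response element. The windows lie on the plus strand of GRCm38.p6 at chr8:94178839-94179138 for Mt1, chr8:94172368-94172667 for Mt2 and chr8:94152357-94152656 for Mt3.
Mt1: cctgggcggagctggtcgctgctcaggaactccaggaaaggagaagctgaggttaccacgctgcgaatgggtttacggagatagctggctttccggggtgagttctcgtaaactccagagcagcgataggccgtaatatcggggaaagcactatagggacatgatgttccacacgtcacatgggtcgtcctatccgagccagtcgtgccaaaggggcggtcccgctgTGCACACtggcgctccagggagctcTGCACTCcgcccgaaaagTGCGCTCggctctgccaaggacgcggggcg
Mt2: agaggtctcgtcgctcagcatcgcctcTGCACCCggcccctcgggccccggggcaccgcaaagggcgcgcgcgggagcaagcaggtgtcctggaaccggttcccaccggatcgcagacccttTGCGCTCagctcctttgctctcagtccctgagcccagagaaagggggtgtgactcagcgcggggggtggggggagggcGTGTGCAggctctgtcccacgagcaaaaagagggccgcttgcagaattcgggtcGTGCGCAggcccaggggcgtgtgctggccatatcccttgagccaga
Mt3: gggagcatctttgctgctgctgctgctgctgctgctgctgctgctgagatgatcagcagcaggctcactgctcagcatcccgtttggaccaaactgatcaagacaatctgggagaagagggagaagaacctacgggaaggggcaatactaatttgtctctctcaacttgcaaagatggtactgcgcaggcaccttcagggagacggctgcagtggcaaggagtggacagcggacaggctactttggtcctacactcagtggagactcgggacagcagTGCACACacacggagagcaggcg
The Mt1 window held 3 matches, the Mt2 window 4 and the Mt3 window 1. Of all RefSeq windows, 25.7% held at least 1 match, so a match by itself is common.

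The 32 listed matrix proteins and inhibitors summed to 8795, 8124 and 9229 RPKM, led by Cst3, then Sparc at 1124 ± 22.2 RPKM, Sparcl1 at 1045 ± 8.55 RPKM and Serpine2, which encodes protease nexin 1, at 875 ± 4.15 RPKM (SD, n = 3 each). Of 28 lysosomal genes, 27 reached 1 RPKM, with a median of 77.0 RPKM. They were led by Psap, the precursor of the saposins that help degrade sphingolipids, at 1095, 1011 and 1125 RPKM, Laptm4a at 708, 692 and 706 RPKM, Lamp1 at 663, 626 and 667 RPKM and Cd63 at 532, 545 and 537 RPKM. The cathepsins Ctsd and Ctsb averaged 388 ± 18.4 and 324 ± 3.00 RPKM.

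Lipid carriers were dominated by Apoe, which held 82.9% of the list's sum. Clu followed, then Pltp, a phospholipid transfer protein, at 77.5 ± 6.38 RPKM and the nuclear receptor Nr1h2 at 38.5 ± 6.25 RPKM (SD, n = 3 each). In lipid synthesis, 21 of 22 genes reached 1 RPKM and Scd2 held 53.8% of the sum. Scd1 averaged 286 ± 10.5 RPKM, and the sterol genes Sqle and Fdft1 125 ± 10.2 and 125 ± 9.21 RPKM. Both rows of Hmgcs1 were listed at 0 reads and give no value for that gene. Of 17 glycolysis genes, Aldoc, the brain aldolase, was the highest at 900.1, 793.5 and 945 RPKM, then Aldoa at 544, 400.2 and 616 RPKM, Pkm at 459.7, 379 and 485 RPKM and Ldha at 289, 184 and 304 RPKM. All 4 were lowest in glia 2, as were 39.1% of all genes with a mean of at least 1 RPKM. Ldhb, the other lactate dehydrogenase chain, averaged 202 ± 9.74 RPKM. Gapdh and Eno1, also on the glycolysis list, had implied lengths of 219 and 43 bases, so their place in this order is not known.

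Antioxidant enzymes were detected throughout, with all 22 genes at 10 RPKM or more and a median of 120.2 RPKM. Prdx2 and Prdx6, peroxiredoxins, averaged 526 ± 43.6 and 508 ± 30.7 RPKM, Cat, catalase, 277 ± 13.2 RPKM and Prdx1 239.6 ± 9.49 RPKM (SD, n = 3 each). Hsp90ab1, a chaperone, was even across libraries at 817, 819 and 816 RPKM, and the endoplasmic reticulum proteins Calr and Ppib averaged 353 ± 15.6 and 225 ± 12.9 RPKM. Ribosomal protein genes summed to 13726, 11929 and 14871 RPKM over 85 genes, led by Rplp1, Rps15, Rps9 and Rpl8. Many of these genes have near-identical copies, so their levels and sums are uncertain. Respiratory chain genes summed to 12184, 11062 and 13095 RPKM over 86 genes, led by Atp5b at 664 ± 30.5 RPKM and Cox4i1 at 628 ± 53.7 RPKM. Next to Eef1a1, the translation factors Eef2, Gnb2l1 and Eif5a averaged 682 ± 49.9, 625 ± 33.2 and 344 ± 20.0 RPKM. The histone genes were led by H3f3b at 343 ± 10.3 RPKM. Of the cytoskeleton genes, Gfap held 22.44% of the sum, and Actb averaged 709.9 ± 31.2 RPKM. Antigen presentation genes were lower, led by B2m at 197, 227 and 205 RPKM and Tapbp at 68.0, 70.2 and 72.3 RPKM.

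The 3 glia libraries were close to each other. The SD of log2(RPKM + 1) over the libraries had a median of 0.101 over the 12592 genes with a mean of at least 1 RPKM, and 90% of the genes lay under 0.231. The highest library exceeded the lowest by more than 1.5-fold (on the RPKM + 1 scale) in 532 genes and by more than 2-fold in 91 genes, 5 of which had at least 50 counts in each library. edgeR's common biological coefficient of variation among glia was 0.0807. It was 0.0524 without glia 2, 0.0743 without glia 3 and 0.115 without glia 1. No library was a repeat deposit of another, since the counts of each pair differed by more than counting error, the only error this check covers, with a chi-square per gene of 4.33 between glia 1 and 2, 3.70 between glia 1 and 3 and 8.27 between glia 2 and 3. Glia 2 was the highest library in 43.5% of genes and the lowest in 39.1%, whereas glia 1 was the highest in 19.8% and the lowest in 21.95%. For glia 3 these shares were 36.7% and 39.0%.

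The libraries differed by gene length. Among genes with a mean of at least 10 RPKM, the median deviation of glia 2 from the mean of the 3 libraries was -0.08 on the log2 scale for genes with an implied length under 300 bases, -0.10 for 300 to 1000 bases, -0.05 for 1000 to 2000 bases, 0.00 for 2000 to 4000 bases and 0.07 for longer genes. Glia 3 deviated the other way, by 0.09, 0.10, 0.06, 0.00 and -0.06 in the same bins. Glia 1 stayed within 0.011 of the mean.

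**Figure D5:**
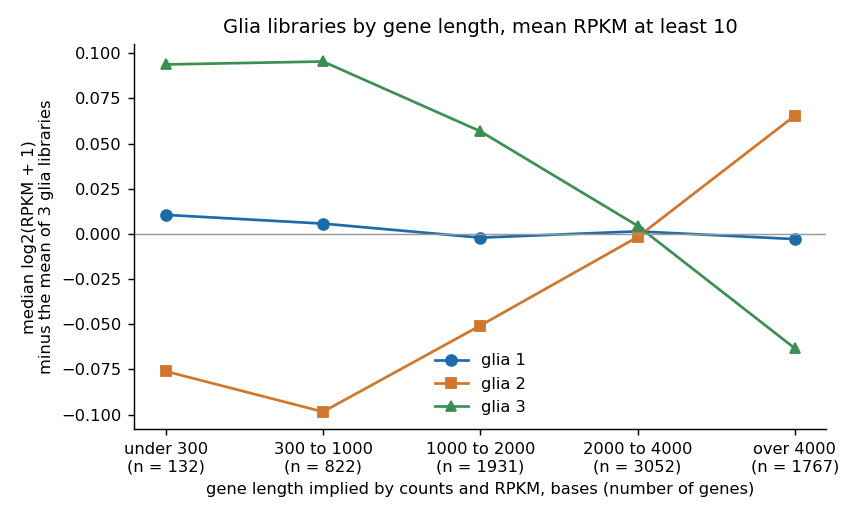
Median deviation of each glia library from the mean of 3, in log2(RPKM + 1) (vertical axis), by gene length in bases (horizontal axis, bins with their number of genes). Glia 2 runs from -0.10 for short genes to 0.07 for genes over 4000 bases, glia 3 from 0.10 to -0.06, and glia 1 stays near 0.

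Several gene groups moved with these library differences. The median deviation of glia 2 was -0.15 for the maturing oligodendrocyte list, -0.17 for the precursor list, -0.21 for glycolysis and 0.15 for mesenchyme. Taken relative to all genes of the same length bin, the deviations were -0.15, -0.18, -0.17 and 0.12. For glia 3 they were 0.10, 0.11, 0.09 and -0.13. For the respiratory chain, the deviation of glia 2 was -0.10 before and -0.04 after this step. Glia 2 was the shallowest library, while glia 1 and glia 3 were close in depth, and the part of depth in these deviations was not tested.

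The 10 genes with the largest ratio of highest to lowest library, on the RPKM + 1 scale, among 7666 genes with a mean of at least 10 RPKM and at least 50 counts in some library, were Ube2h, Rpl36, Arfrp1, Scand1, Gm16379, Aebp2, Ttc9b, Rpl34, H1fx and Mir5109. Glia 2 was the lowest for 8 of them and the highest for 1, against 39.1% and 43.5% of all genes with a mean of at least 1 RPKM. Ube2h was listed at 56.3, 0 and 58.7 RPKM in glia 1, 2 and 3, although 626 reads were counted for it in glia 2, so that the reads and the listed RPKM disagree. Arfrp1 was listed at 19.9, 43.5 and 20.6 RPKM from 831, 340 and 869 reads, and Aebp2 at 28.4, 13.2 and 24.9 RPKM from 1163, 525 and 1115 reads, so that in both the RPKM and the reads per library differed in pattern. Scand1 stood at 92.0, 54.3 and 116 RPKM from 882, 209 and 1129 reads. Rpl36 and Rpl34 rested on 10 reads each in glia 2.

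The comparison with GPC places these levels. With 13588 genes entering the test, 35.2% were called higher and 35.2% lower in glia (threshold of 0.05 on p adjusted by Benjamini-Hochberg, two-sided quasi-likelihood test in edgeR), so a call by itself is common. GPC 3 stood apart from the other GPC libraries in several of the markers. Gfap averaged 3258 ± 291 RPKM in glia and 8.37 ± 4.70 RPKM in GPC (SD, n = 3 and 4), a log2 change of 8.54 ± 0.44 (SE) with an edgeR adjusted p of 1.5e-06, and of 9.05 without GPC 3. Apoe averaged 3364 ± 757 RPKM in glia and 47.9 ± 37.1 RPKM in GPC, a log2 change of 6.08 ± 0.58, and of 6.81 without GPC 3 (edgeR adjusted p = 5.6e-05 with all libraries). Mbp rose by 6.55 ± 0.36 and Aqp4 by 5.57 ± 0.16 on the log2 scale, and by 6.95 and 5.73 without GPC 3. Glia and GPC libraries did not overlap for any of these 4 genes. The share of all genes without overlap was not counted, so this is a description only. Of the astrocyte defining markers, Slc1a3 fell by 0.75 ± 0.07 and Aldh1l1 by 1.19 ± 0.20 on the log2 scale, to 182 ± 12.4 and 12.01 ± 0.810 RPKM in glia, against 300.3 ± 6.87 and 26.7 ± 6.52 RPKM in GPC.

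The other defining markers moved in both directions. Mag and Mog rose by 6.79 ± 0.36 and 5.996 ± 0.347 on the log2 scale. Of the precursor markers, Pdgfra rose by 1.34 ± 0.11 and Sox10 by 0.90 ± 0.13, whereas Olig2 fell by 0.99 ± 0.09 and Cspg4 by 1.45 ± 0.23. Of the progenitor markers, Nes fell by 2.63 ± 0.08 and Fabp7 by 1.77 ± 0.07, and Pax6 rose by 0.43 ± 0.09. Sox2 rose by 0.24 ± 0.08 with an edgeR adjusted p of 0.027, and this call was lost without 5 of the 7 libraries taken 1 at a time, with adjusted p from 0.060 to 0.11.

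The listed gene groups went different ways. Of 35 astrocyte genes, 25 rose and 7 fell, with a median log2 change of 1.74. All 28 maturing oligodendrocyte genes tested rose, with a median of 3.75. All 3 metallothionein genes tested rose, with a median log2 change of 2.27, and Mt1 averaged 2128 ± 282 RPKM in glia and 431 ± 147 RPKM in GPC (SD, n = 3 and 4). Of 28 lysosomal genes, 21 rose and 3 fell, with a median of 0.90, and of 13 lipid carrier genes 9 rose and 2 fell, with a median of 1.74. Of 21 genes for glutamate and potassium handling, 14 rose and 3 fell. Of 19 mesenchyme genes, 18 rose and 0 fell, with a median of 1.86. Of 16 neuron genes tested, 9 rose and 2 fell, with a median of 0.80. Among ribosomal protein genes, 0 of 75 tested rose and 68 fell, with a median of -0.999. Translation factors fell in 23 of 26 genes, with a median of -0.63. Of 17 glycolysis genes 5 rose and 10 fell, and of 79 respiratory chain genes 5 rose and 52 fell. Gapdh and Eno1 among the glycolysis genes rested on 41 and 27 reads over the 3 glia libraries. Of 21 lipid synthesis genes 11 fell and 2 rose, and the count that rose was 5 without GPC 3 and 1 without each other library. The median log2 change of all genes tested was 0.00, and the background share of 35.2% in each direction applies to every count here. Ckb and Fabp7, both abundant in glia, were the first and second genes of the GPC order.

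A further readout was the authors' lists of SOX3 and SOX9 peaks in GPC, each made over all samples of the factor, which pair peaks with genes by their own rule (build mm9). No SOX3 or SOX9 peaks were measured in glia. Of the 100 genes highest in glia, 18 were paired with a SOX3 peak and 15 with a SOX9 peak, against 734 (5.96%) and 1424 (11.6%) of 12316 gene symbols detected in all 3 glia libraries. Among the 30 highest, 7 genes had a SOX3 peak and 10 a SOX9 peak. Distances to the start site are the authors', and a negative one is upstream. A SOX9 peak lay at -1410 bases from Gfap (chr11:102759555-102760155) and another at -1324 bases from Ndrg2 (chr14:52534187-52534787). Cst3, Fabp7, Scd2 and Sparcl1 had peaks of both factors, with the SOX3 peak at -14630, -40647, 18678 and 3618 bases. Of the 4 lead markers, Apoe and Mbp had a peak of neither factor. Aqp4 was paired with SOX9 peaks farther away, at -38426 and 63513 bases. These shares are descriptions, without a test, and a gene's chance to be paired depends on the distance to its neighbours.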

How the data were processed

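RNA-seq of 3 glia and 4 GPC libraries was taken from a table of read counts and RPKM per gene as deposited by the authors, with mm9 as the build, per the submitters' processing notes. The RPKM values were computed by the authors, with mapped reads and normalization reads per the file headers. The sources used here do not give the aligner, the counting tool or the strandedness. Overlapping genes, antisense genes and near-identical copies therefore cannot be told apart. For peak calling, the notes of the submitters list MACS and MACS2. The NFIA list, the input samples and the H3K27Ac samples were not used here.

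Levels are the deposited RPKM, with mean and SD over libraries. Gene length was taken as the length that turns a row's counts and the normalization reads into its RPKM. Rows of 1 symbol were summed for the levels of the 35 lists, whose 1048 entries all matched, directly or through RefSeq synonyms (GRCm38.p6). The counts of listed genes that rose or fell used the first row of each symbol instead. Counts were tested with edgeR 4.0.16 in R 4.3.3 (TMM, filterByExpr, robust glmQLFit and glmQLFTest, Benjamini-Hochberg), and with DESeq2 1.42.0 as an alternative. The SE is the size of the log2 change over the square root of F. The edgeR step was tested on simulated data. Named genes are the 4 lead markers, the 30 highest by RPKM and 10 by counts, defining and highest members of each list, the 12 highest transcription factors and 10 highest receptors, and the 10 genes of largest spread. Others, such as Sox9, Slc1a2, Gjb6, Serpina3n, Ldhb, Gapdh, Eno1, Ppia and Hmgcs1, were added after their values were seen. Members, lists and markers were chosen with earlier results of these data known. Alternatives were thresholds, pseudocounts, scalings, list summaries, a replicate block and each library left out. Promoter sequences came from RefSeq windows. Their motif shares over the 100 highest genes are void, since 75 of 100 genes matched a window. Protein sequences were not used here. Some listed genes are not reported here.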

Additional observations from a re-analysis of the deposited data

Results flagged for a closer look

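Of 16 marker genes compared with GPC, 7 had a GPC library far from the other 3 by Dixon's criterion, and it was GPC 3 each time. Chance alone gives about 1 such case in 20 for a single gene, and genes of 1 library are not independent cases. GPC 3 was also the deepest GPC library, with 22439837 counted reads against 12836998 to 13037426 in the others. The part of depth in these values was not tested. In GPC 3, Gfap stood at 15.4 RPKM (others 5.64 to 6.52), Apoe at 104 RPKM (28.9 to 29.9) and Mbp at 15.9 RPKM (6.03 to 6.94), all higher. Aldh1l1 stood at 17.0 RPKM (29.5 to 30.4), Pdgfra at 16.2 RPKM (21.9 to 22.5), Cspg4 at 3.54 RPKM (6.46 to 7.00) and Olig2 at 491 RPKM (545 to 553), all lower. Without GPC 3 these genes kept their direction of change in glia, and 5159 genes rose and 5114 fell, against 4789 and 4779 with all libraries. Groups of 3 libraries, such as the glia, are not examined in this way.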

How the results depend on the processing

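Genes detected in all 3 glia libraries numbered 9580 to 13034 under thresholds of 5 and 0.5 RPKM, counts thinned to the depth of glia 2, or any library left out. The share of the 100 highest genes was 15.2% of counts in place of 20.4% of RPKM, and 19.97% without ribosomal protein genes. The ratio of astrocyte to maturing oligodendrocyte sums (7.25) was 5.84 from medians, 9.37 without the highest members and 3.54 without 5 astrocyte genes of wider use, a choice made after seeing the data. It ranged from 6.896 to 7.43 with a library left out, and rescaling each library leaves it as it is by construction. The median SD over glia libraries ranged from 0.0628 without glia 2 to 0.116 without glia 1 (0.101 with all). SOX3 peaks were paired with 11.4% of the 500 highest genes. Against GPC, counts of genes that rose and fell stayed within 1.5 times under DESeq2, RLE scaling, other filters and each library left out (4146 to 5199 rose and 4150 to 5114 fell). Pairing by replicate number was not stated, and same-numbered libraries did not deviate together in every pair (correlations -0.021, 0.14 and 0.069). With the replicate block over replicates 1 to 3, 4542 genes rose and 4401 fell. Depth limits genes under 1 RPKM, above all in glia 2. The protein part of the promoter and protein features was not run.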

Other observations

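Genes outside the lists were looked at as well. Transcripts of 4 Y-linked genes were present in every glia library, Eif2s3y at 38.0, 46.8 and 41.9 RPKM, Ddx3y at 14.3 ± 1.21 RPKM, Kdm5d at 7.70 ± 0.587 RPKM and Uty at 6.73 ± 1.10 RPKM (SD, n = 3 each), while Xist averaged 0.0366 RPKM. GPC showed the same pattern, with means of 28.8 RPKM for Eif2s3y, 11.7 for Ddx3y, 7.36 for Kdm5d, 5.47 for Uty and 0.0194 for Xist. These genes were chosen after their values were seen. Of 2207 rows with a noncoding accession only, 413 reached 1 RPKM in all 3 glia libraries.

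Among long noncoding RNAs, Malat1 stood at 68.0, 126 and 96.2 RPKM in glia 1, 2 and 3, Neat1 at 72.4, 104 and 85.6 RPKM and Meg3 at 36.6, 51.1 and 42.3 RPKM, each highest in glia 2. Of all genes with a mean of at least 1 RPKM, 43.5% were highest in glia 2. Malat1 and Neat1 are retained in the nucleus. The gene Lars2 was listed at 115, 198 and 215 RPKM. Dcun1d2 was listed at 0 RPKM in all 3 glia libraries although 598, 243 and 632 reads were counted for it.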
